A study of Mus musculus with 20 samples.

Results

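The skeletal muscle genes described here are 34 of the 51789 genes in the deposited table: Acta1, Ckm, Myh1, Myh2, Myh4, Myh7, Mylpf, Myl1, Myl2, Myl3, Tnnt1, Tnnt3, Tnni1, Tnni2, Tnnc1, Tnnc2, Pvalb, Actn2, Actn3, Atp2a1, Mb, Ttn, Neb, Tcap, Myoz1, Myot, Ryr1, Casq1, Tpm2, Eno3, Pygm, Ampd1, Mybpc1 and Mybpc2. They were chosen by name, as genes of the skeletal muscle contractile apparatus, its calcium handling and its energy metabolism, and all 34 were found and passed the filter on low values that left 16383 genes to test. RNA was measured in mouse intervertebral disc, in 4 groups of 5 libraries: the soft centre, or nucleus pulposus (NP), and the outer ring of layered collagen, or annulus fibrosus (AF), each from vehicle and from MDL-800 mice. All mice were of the BL6 strain and 24 months old. From 18 months of age, for 6 months, vehicle mice had weekly intraperitoneal DMSO and MDL-800 mice had the compound in the same amount of DMSO, so every group had DMSO. MDL-800 is a small-molecule activator of the deacylase SIRT6. The tissue was dissected under a microscope, while the labels call the samples primary cells. Libraries are named by the number in their title, and since nothing says that the libraries of a group came from separate animals, p-values measure the spread between these libraries.

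Skeletal muscle contracts by sliding thick filaments of myosin past thin filaments of actin, within sarcomeres that are bounded by Z-discs. Calcium released through the ryanodine receptor binds troponin on the thin filament, and a calcium pump returns it to store. Fast and slow fibres use different myosins, troponins and calcium-binding proteins, so partner genes such as Myh4 and Myh7 mark the fibre type. The disc itself holds no skeletal muscle, and paraspinal muscle lies close to its outer ring.

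The promoters of a thin filament gene (Acta1, skeletal actin) and of a fast and a slow myosin heavy chain (Myh4 and Myh7) are shown because these genes moved together between NP and AF while their ratios differed between AF libraries. Each runs from 250 bases before to 50 bases after the RefSeq start (build GRCm38.p6), at chr8:123894726-123895025 on the minus strand for Acta1, chr11:67237562-67237861 on the plus strand for Myh4 and chr14:54994577-54994876 on the minus strand for Myh7 (1 of 2 windows listed for it).
Acta1: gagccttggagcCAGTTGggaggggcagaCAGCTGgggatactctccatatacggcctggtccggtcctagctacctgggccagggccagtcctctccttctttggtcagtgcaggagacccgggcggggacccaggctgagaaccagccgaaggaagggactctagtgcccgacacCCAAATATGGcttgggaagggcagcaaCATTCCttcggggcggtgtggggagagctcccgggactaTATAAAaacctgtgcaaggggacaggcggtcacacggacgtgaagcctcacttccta
Myh4: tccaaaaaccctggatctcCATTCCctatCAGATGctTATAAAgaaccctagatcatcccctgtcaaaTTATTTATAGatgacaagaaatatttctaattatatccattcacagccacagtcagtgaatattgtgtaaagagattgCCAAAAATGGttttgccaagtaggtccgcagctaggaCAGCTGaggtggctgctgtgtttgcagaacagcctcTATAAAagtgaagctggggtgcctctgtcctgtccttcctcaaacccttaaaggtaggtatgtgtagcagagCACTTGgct
Myh7: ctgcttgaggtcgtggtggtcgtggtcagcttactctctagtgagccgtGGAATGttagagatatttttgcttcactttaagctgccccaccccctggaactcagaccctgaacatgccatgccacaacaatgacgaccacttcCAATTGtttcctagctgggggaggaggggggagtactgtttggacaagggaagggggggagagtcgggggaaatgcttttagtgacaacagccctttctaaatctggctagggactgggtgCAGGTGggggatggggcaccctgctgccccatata
Capitals mark matches, on either strand, to CANNTG (the E-box bound by myogenic factors such as MyoD), CATTCC (the MCAT element), TATAAA, and the MEF2 and CArG elements by name. Bases are counted from the RefSeq start. The GENCODE annotation starts Acta1 at 123894751, inside its window, and Myh4 at 67238029, past the end of its window. The Acta1 window held a CArG match 73 bases, a CATTCC match 46 bases and a TATAAA match 7 bases before the RefSeq start. The Myh4 window held a CArG match 104 bases and a MEF2 match 182 bases before it, the latter overlapping a TATAAA match on the other strand. The Myh7 window held CANNTG matches 106 bases before and at base 16 from the start, a CATTCC match 201 bases before it, and no match to the other 3 motifs. RefSeq promoter windows were matched for 26 of the 34 genes, 32 windows in all, and CANNTG was in 28 of the 32 against 72.3% of all 32851 windows. CATTCC was in 10 of the 32 (14.7% of all windows), TATAAA in 7 (13.6%), MEF2 in 4 (3.19%) and CArG in 3 (1.63%). These matches are descriptions of letters in the windows.

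One library stood apart. NP vehicle library 3 had the highest value of all 10 NP libraries for 34 of the 34 genes, and its value lay above the lowest AF vehicle value for 30 of the 34, all but Ckm, Ttn, Ryr1 and Neb. The 34 genes made up 0.627% of its protein-coding FPKM (fragments per kilobase of transcript, scaled to library depth), against 0.0195%, 0.0561%, 0.0413% and 0.0779% in NP vehicle libraries 1, 2, 5 and 6. Summed over the roles below, its FPKM was 9.18 (thin filament) to 18.6 (calcium handling) times the mean of those 4 libraries. Against the highest of those 4 it was 6.12 (thin filament) to 10.6 (fast myosin) times. The sum of 7 AF and tendon markers was 0.765 times the mean of the other 4, that of 6 red blood cell markers 0.988 times, 6 bone markers 0.787 times, 5 fat markers 2.22 times and 5 nerve markers 2.01 times. That of 5 endothelial markers was 1.35 times and that of 5 neutrophil markers 0.219 times this mean. Of the further muscle lists below, sarcomere genes summed to 1.60, excitation and calcium genes to 1.50 and metabolic genes to 2.38 times it. Developmental myosins summed to 1.88 and muscle regulators to 0.881 times it. Levels below are scaled FPKM, the deposited FPKM divided by a factor for each library. For the 34 genes, NP minus AF differences in vehicle mice and their counts are given with and without library 3. So are the median log2 fold changes of the comparisons that use vehicle NP. Library depth, estimated from the steps of low FPKM values, was 12.95 M to 22.5 M fragments.

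**Figure D1:**
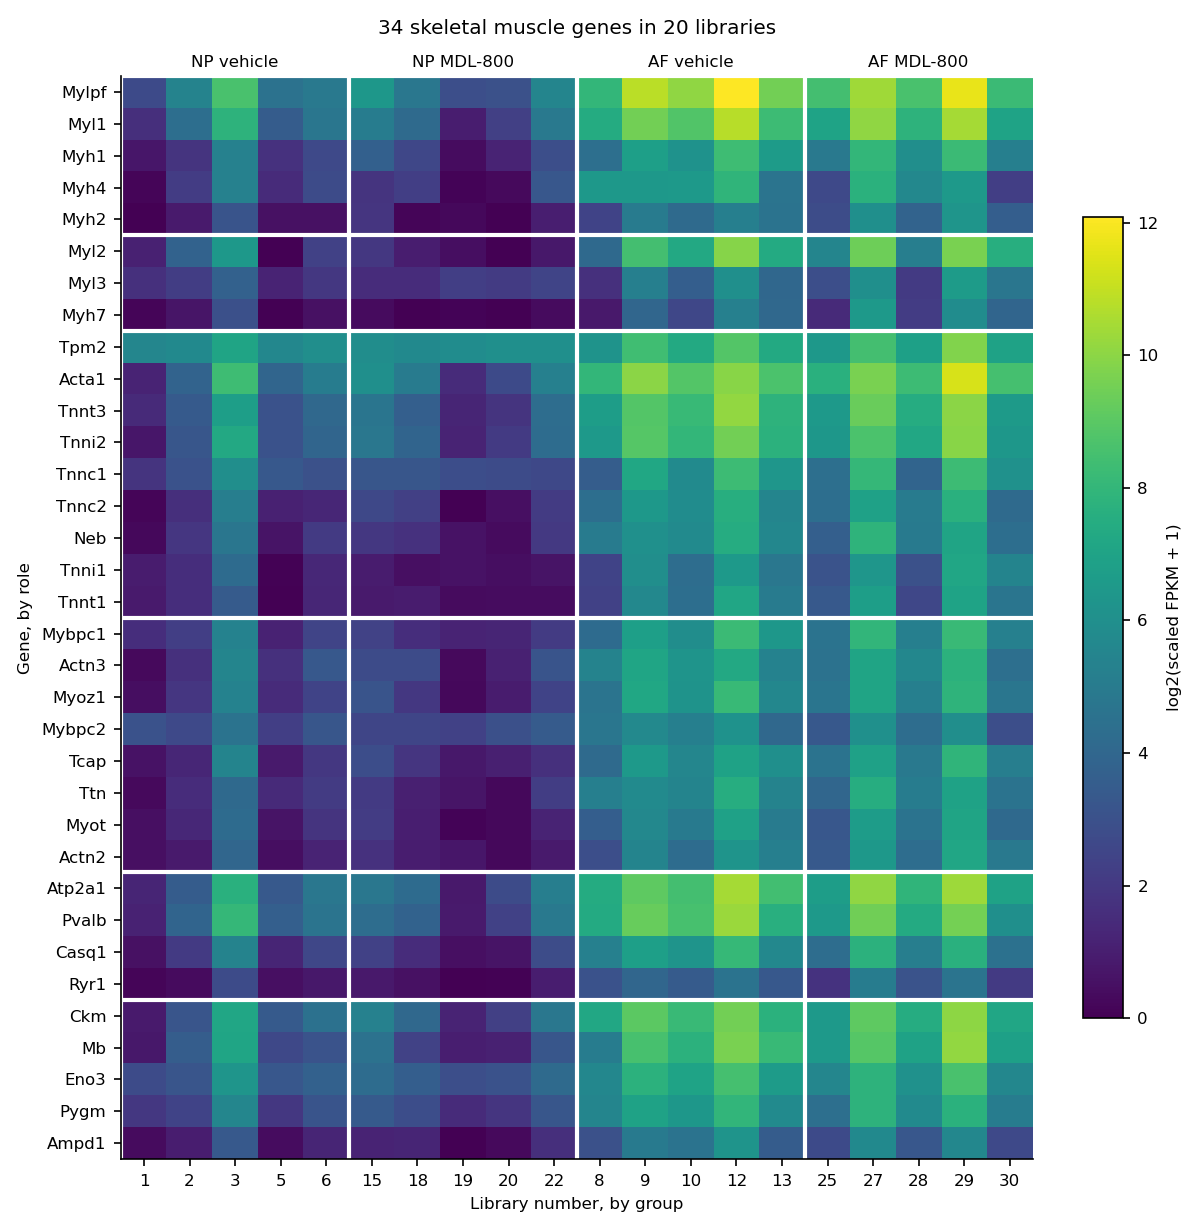
Expression of the 34 genes (rows, grouped by role from fast myosin at the top to energy metabolism at the bottom) in the 20 libraries (columns, by group), as log2(scaled FPKM + 1). All 10 AF libraries are brighter than most NP libraries, NP vehicle library 3 stands out among the NP columns, and Tpm2 keeps a level of 46.0 or more in every NP library.

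These genes held a larger share of RNA in AF than in NP. In vehicle mice the 34 genes made up 0.396% to 3.95% of protein-coding FPKM in AF (median 1.12%) but 0.0195% to 0.627% in NP (median 0.0561%). With MDL-800 they made up 0.356% to 3.95% in AF (median 0.582%) and 0.0208% to 0.113% in NP (median 0.0592%). In AF vehicle library 12 and in AF MDL-800 library 29, Mylpf was the 3rd most abundant protein-coding gene by FPKM. A higher level in bulk tissue can come from more cells of a type or from more RNA per cell, which cannot be told apart here.

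**Figure D2:**
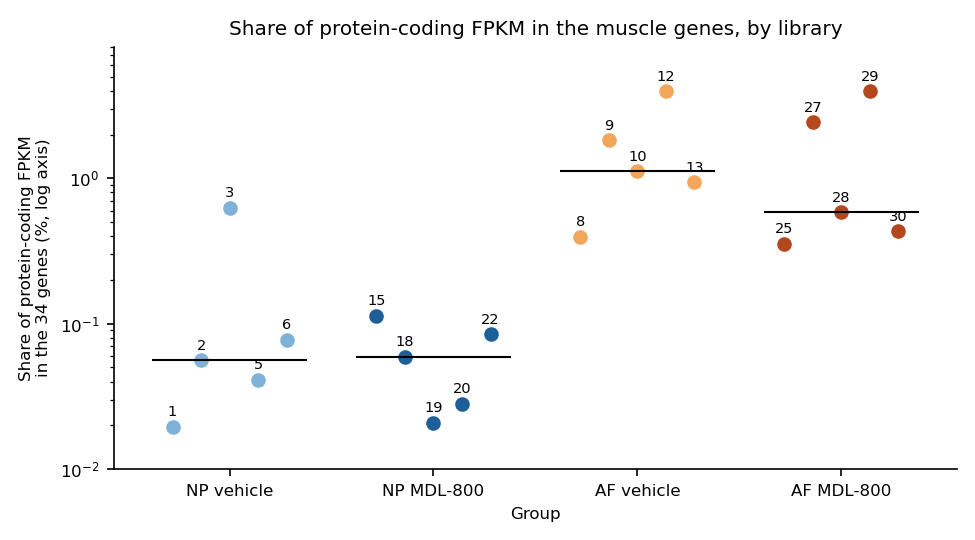
Share of protein-coding FPKM held by the 34 genes in each library (points with library number, log axis); the line is the group median. The 2 AF groups span 0.356% to 3.95%, and NP vehicle library 3, at 0.627%, is the one NP library inside that span.

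Between tissues of vehicle mice, 34 of 34 genes were lower in NP at an adjusted p under 0.05 (limma on log2(scaled FPKM + 1), Benjamini-Hochberg over all genes), where 33.9% of all genes tested were lower. The log2 fold change, NP minus AF, ran from -4.86 (Mylpf) to -1.64 (Tpm2), with a median of -3.89 against -0.08 over all genes tested. Groups did not overlap for 4 of the 34 (Ckm, Ttn, Neb and Ryr1), where 25.9% of all genes did not overlap in that direction. The call of Myl3 was lost in 12 alternative settings, more than kept it, that of Myh7 in 3 and that of Tnnc1 in 1. Without NP vehicle library 3, 34 of 34 were still lower and the median was -4.59. The share of all genes called lower is not given for that setting. There, 33 of 34 did not overlap (all but Myl3), where 28.2% of all genes did not overlap in that direction. Without AF vehicle library 8, the lowest of its group for 31 of the 34 genes, 27 did not overlap. The share of all genes without overlap was not taken for that setting.

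In MDL-800 mice, 34 of 34 genes were again lower in NP, where 37.2% of all genes tested were lower. The log2 fold change ran from -6.64 (Myl2) to -1.76 (Mybpc2), with a median of -4.28. The call of Mybpc2 was lost in 6 alternative settings, that of Myh4 in 1 and that of Myl3 in 1. Groups did not overlap for 31 of the 34, all but Myh4, Myl3 and Mybpc2, where 30.5% of all genes did not overlap in that direction.

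Mylpf, the fast regulatory light chain, had the highest mean AF level of the 34 genes, with scaled FPKM of 253, 1824, 1085, 4347 and 741 in AF vehicle libraries 8, 9, 10, 12 and 13, and 358, 1320, 397, 3333 and 298 in AF MDL-800 libraries 25, 27, 28, 29 and 30. In NP vehicle libraries 1, 2, 3, 5 and 6 it was 5.62, 41.4, 398, 22.9 and 28.7, and in NP MDL-800 libraries 15, 18, 19, 20 and 22 it was 82.4, 26.6, 6.37, 7.01 and 44.5. Library 3 was inside the AF range, and every other NP library was below every AF library. The log2 fold change was -4.86 (SE 1.02, adjusted p = 0.00203) in vehicle mice, or -5.70 without library 3, and -4.97 (SE 0.84, adjusted p = 4.0e-04) in MDL-800 mice. The fast essential light chain Myl1 had 128 to 1766 in AF and a median of 18.4 in NP, with differences of -4.55 (-5.41 without library 3) and -4.99.

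Myh1, the fast 2X heavy chain, had scaled FPKM of 20.4, 112, 70.9, 323 and 98.2 in vehicle AF and 28.5, 258, 61.0, 302 and 35.7 in MDL-800 AF, in the same order of libraries. In NP it was 0.654, 2.53, 38.3, 2.30 and 5.25 with vehicle and 12.2, 5.00, 0.333, 1.27 and 6.55 with MDL-800. Apart from library 3, NP and AF did not overlap, and the differences were -4.03 (SE 0.86, adjusted p = 0.00233; -4.75 without library 3) and -4.30 (SE 0.80, adjusted p = 8.3e-04). Myh4, the fast 2B heavy chain of the fastest fibres, had 85.8, 86.8, 89.1, 238 and 24.2 in vehicle AF and 5.25, 213, 48.6, 91.0 and 3.78 in MDL-800 AF. Its NP values were 0.129, 3.39, 39.0, 1.83 and 5.84 with vehicle and 2.58, 3.76, 0.0706, 0.243 and 8.57 with MDL-800. AF MDL-800 libraries 25 and 30 were so low that they fell among the NP libraries. The differences were -4.01 (SE 0.86, adjusted p = 0.00236; -4.74 without library 3) and -3.41 (SE 1.07, adjusted p = 0.0168). Myh2, the fast 2A heavy chain, had 4.35, 31.3, 16.9, 36.7 and 23.1 in vehicle AF and 5.97, 64.5, 13.2, 77.5 and 11.1 in MDL-800 AF. Its NP values were 0.0322, 0.846, 7.91, 0.473 and 0.474 with vehicle and 2.59, 0.137, 0.182, 0.0106 and 1.03 with MDL-800. Library 3 was the one NP library inside the AF range, and the differences were -3.24 (-3.77 without library 3) and -3.85. The 3 fast heavy chain genes lie side by side on the plus strand of chromosome 11 (GRCm38), with Myh2 from 67171027, Myh1 from 67200052 and Myh4 from 67238029 to 67260446. Near-identical stretches can let reads be shared: 7.59% of the 100-base words of the Myh1 transcript are also in Myh2 and 2.22% in Myh4, and none in Myh7.

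Among the slow myosins, Myl2 (the slow regulatory light chain, shared with heart ventricle) had scaled FPKM of 16.5, 352, 156, 940 and 168 in vehicle AF and 44.1, 674, 34.7, 800 and 187 in MDL-800 AF. In NP it was 1.14, 12.8, 85.7, 0 and 4.12 with vehicle and 2.83, 0.926, 0.343, 0 and 0.690 with MDL-800. It was at 0 in NP vehicle library 5 and NP MDL-800 library 20, and library 3 was above AF vehicle library 8 and AF MDL-800 libraries 25 and 28. The differences were -4.70 (SE 1.27, adjusted p = 0.00867; -5.62 without library 3) and -6.64 (SE 0.86, adjusted p = 7.1e-05). Myh7, the slow heavy chain, had 0.795, 14.9, 4.95, 37.5 and 15.7 in AF vehicle, 1.71, 90.2, 3.49, 57.9 and 14.2 in AF MDL-800, with 0.118, 0.629, 6.62, 0 and 0.464 in vehicle NP. In MDL-800 NP it had 0.279, 0, 0.0908, 0.0212 and 0.278. It was at 0 in NP vehicle library 5 and NP MDL-800 library 18. Its differences were -2.48 (SE 0.80, adjusted p = 0.0217; -2.99 without library 3) and -3.81 (SE 0.87, adjusted p = 0.00286). Myl3, the slow essential light chain, had 2.18 to 97.1 in AF and 1.29 to 12.3 in NP, and its difference in vehicle mice of -1.96 (-2.36 without library 3) had the highest adjusted p of the 34 genes, 0.0435 by limma. That call was lost in 12 alternative settings, more than kept it, with an adjusted p (limma) of up to 0.0976 when a single library was left out.

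Of the thin filament, Acta1, skeletal actin, had scaled FPKM of 252, 1017, 460, 975 and 408 in vehicle AF and 205, 802, 316, 2603 and 362 in MDL-800 AF. In NP it was 1.33, 13.6, 325, 14.1 and 33.1 with vehicle and 62.9, 31.8, 1.83, 5.67 and 37.7 with MDL-800. Library 3 was again the one NP library inside the AF range. The differences were -4.60 (SE 1.05, adjusted p = 0.00343; -5.56 without library 3) and -4.99 (SE 0.93, adjusted p = 7.9e-04). The fast troponins Tnnt3, Tnni2 and Tnnc2, which hold the thin filament off or on with calcium, differed by -4.58, -4.47 and -4.07 in vehicle mice, or -5.34, -5.39 and -4.90 without library 3. The slow troponins Tnnt1, Tnni1 and Tnnc1 differed by -3.45, -3.18 and -2.81, or -3.97, -3.83 and -3.45 without it. Nebulin (Neb), which spans the thin filament, differed by -4.07, or -4.78 without it. Tpm2, beta-tropomyosin, which also occurs in non-muscle and smooth muscle cells, differed from the rest in NP: it stayed at 46.0 to 64.8 in the 9 NP libraries other than library 3 (133), while AF ran from 72.1 to 900. Its differences of -1.64 (-1.91 without library 3) and -1.78 were the smallest of this role.

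At the Z-disc and along the thick filament, Mybpc1, slow myosin-binding protein C, had scaled FPKM of 17.5, 111, 59.0, 304 and 82.3 in vehicle AF and 22.99, 250, 36.5, 294 and 37.0 in MDL-800 AF. In NP it was 2.02, 3.78, 39.4, 1.19 and 4.63 with vehicle and 4.15, 2.03, 1.27, 1.34 and 3.22 with MDL-800, so that 9 of 10 NP libraries were below every AF library. The differences were -3.75 (SE 0.85, adjusted p = 0.00328; -4.44 without library 3) and -4.56 (SE 0.69, adjusted p = 2.0e-04). Titin (Ttn), the molecular spring, differed by -3.97 (-4.53 without library 3) and had the lowest adjusted p of the 34 genes in vehicle mice, 4.4e-04. The alpha-actinins Actn2 and Actn3, which crosslink actin at the Z-disc, differed by -3.41 and -3.78, or -4.05 and -4.53 without library 3. Tcap, Myoz1 and Myot, Z-disc proteins, differed by -3.80, -4.03 and -3.52, or -4.65, -4.78 and -4.15 without it. Mybpc2, fast myosin-binding protein C, had 3.72 to 23.6 in NP and 6.48 to 71.4 in AF, with differences of -2.02 (-2.39 without library 3) and -1.76.

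Of the calcium handling genes, Atp2a1, the fast-fibre calcium pump, had scaled FPKM of 172, 543, 354, 1422 and 346 in vehicle AF and 104, 1068, 236, 1278 and 125 in MDL-800 AF. In NP it was 1.36, 10.6, 203, 9.37 and 26.8 with vehicle and 26.5, 17.8, 0.767, 5.78 and 35.2 with MDL-800. Library 3 exceeded AF vehicle library 8 and AF MDL-800 libraries 25 and 30, and no other NP library reached the AF range. The differences were -4.66 (SE 1.01, adjusted p = 0.00248; -5.55 without library 3) and -4.84 (SE 0.96, adjusted p = 0.00118). Pvalb, parvalbumin, a calcium buffer of fast fibres, differed by -4.35, Casq1, calsequestrin of the calcium store, by -4.05, and Ryr1, the calcium release channel, by -2.79 in vehicle mice. Without library 3 the differences of Pvalb, Casq1 and Ryr1 were -5.30, -4.81 and -3.25.

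Among the energy genes, Ckm, muscle creatine kinase, had scaled FPKM of 149, 522, 287, 742 and 209 in vehicle AF and 91.7, 539, 180, 1045 and 143 in MDL-800 AF. In NP it was 0.804, 8.21, 140, 9.77 and 21.7 with vehicle and 39.0, 16.0, 1.28, 3.96 and 27.1 with MDL-800. Within vehicle mice the tissues did not overlap for this gene, library 3 included. The differences were -4.51 (SE 0.95, adjusted p = 0.00217; -5.34 without library 3) and -4.52 (SE 0.88, adjusted p = 0.00107). Mb, myoglobin, the oxygen store, differed by -4.42 and -5.41, Pygm, muscle glycogen phosphorylase, by -3.50 and -3.60, Eno3, muscle enolase, by -3.24 and -3.13, and Ampd1, muscle AMP deaminase, by -3.19 and -3.11. Without library 3 the vehicle differences of Mb, Pygm, Eno3 and Ampd1 were -5.34, -4.14, -3.86 and -3.72.

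**Figure D3:**
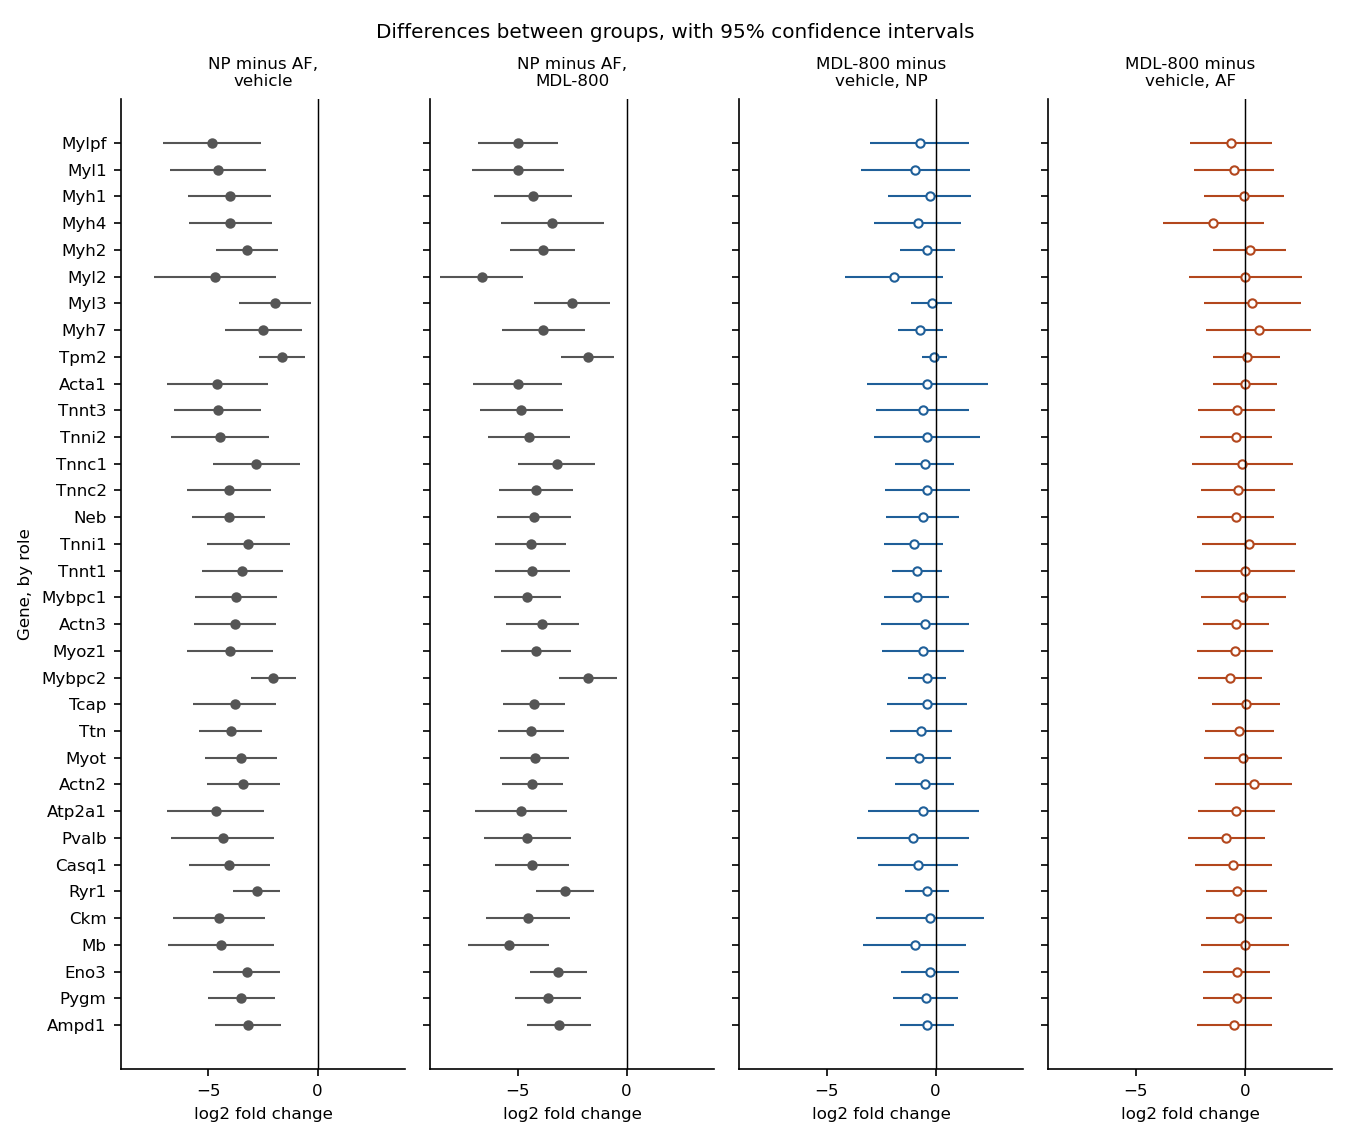
log2 fold change of each gene (points) with its 95% confidence interval (lines) in 4 comparisons, filled where the adjusted p was under 0.05. The 34 genes are filled and negative in both NP minus AF panels, and open in both MDL-800 minus vehicle panels, where every interval includes 0.

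Markers of other tissues differed between NP and AF too. In vehicle mice, 7 of 7 AF and tendon, 6 of 6 red blood cell, 6 of 6 bone, 5 of 5 fat, 5 of 5 nerve, 5 of 5 endothelial and 5 of 5 neutrophil markers were lower in NP, and 5 of 5 tested NP markers were higher. Summed red blood cell markers ran from 594 to 1980 FPKM in AF vehicle and from 38.5 to 159 in NP vehicle, fat markers from 105 to 213 and from 1.40 to 8.61, and nerve markers from 91.5 to 1138 and from 10.8 to 23.4. Neutrophil markers ran from 7167 to 18531 in AF vehicle and from 186 to 2883 in NP vehicle. None of these lists had a marker at 0 in every library of either group. Their part in the muscle results was not tested. Of 6 smooth muscle markers, Myh11 (1.19), Acta2 (2.12) and Tagln (1.98) were higher in NP, 2 were lower and Cnn1 (0.08) did not pass, and the list summed to 739 to 1370 FPKM in NP vehicle and 191 to 639 in AF vehicle. Of 6 heart muscle markers, Myl7 was higher in NP (2.16), Tnnt2 was lower (-1.16), and Myh6, Nppa, Tnni3 and Mybpc3 were too low to test. The heart list summed to 18.5 to 32.6 FPKM in NP vehicle and 5.31 to 23.7 in AF vehicle. The counts of these marker lists were the same without library 3.

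Other muscle genes moved with the 34. Of 22 further sarcomere genes, 20 were lower in NP of vehicle mice, led by Des (desmin, -3.97) and Myoz2 (-3.77), and Myom3 (-0.96) and Tpm1 (-0.44) did not pass. Of 18 genes of excitation and calcium handling, 16 were lower, among them Sgca (a sarcoglycan, -2.97), Jph2 was higher (2.08) and Atp2a2 did not pass (-0.15). Of 15 tested metabolic genes, 10 were lower, led by Pgam2 (-3.49) and Apobec2 (-3.29), and 5 did not pass. Myh3 (embryonic myosin, -1.30) and Myl4 (-1.84) were lower, and Myh8 and Actc1 were too low to test. Among muscle regulators, Myod1 (-0.92), Myf6 (-2.20) and Mef2c (-1.54) were lower, Sox6 (0.79) was higher, and Myog, Myf5, Pax7 and Pax3 were too low to test. Without library 3 the counts of the first 4 lists were the same. In MDL-800 mice, 19 of 22, 15 of 18, 11 of 15 and 2 of 2 were lower in the first 4 lists.

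MDL-800 against vehicle was then compared within each tissue. In NP, 0 of the 34 genes passed, where 0.25% of all genes tested did, and 0 of the 34 against 14.1% of all genes had an unadjusted p under 0.05 (limma). The log2 fold change, MDL-800 minus vehicle, was negative for 34 of 34, from -1.92 (Myl2, 95% interval -4.17 to 0.33, adjusted p = 0.436) to -0.06 (Tpm2), with a median of -0.53 against -0.03 over all genes tested. Without NP vehicle library 3 the median was 0.13, 21 of 34 were positive and Myl2 differed by -0.996. Without NP vehicle library 1 the median was -1.02. The groups overlapped for 34 of 34 genes, where 1% of all genes were lower and 3.5% higher without overlap.

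In AF, 0 of the 34 genes passed, where 0 of the 16383 genes tested did (0%), and 0 of the 34 against 1.65% of all genes had an unadjusted p under 0.05 (limma). The log2 fold change was positive for 11 and negative for 23, from -1.43 (Myh4, interval -3.75 to 0.89) to 0.64 (Myh7, interval -1.79 to 3.06), with a median of -0.29. The median was 0.09 without AF vehicle library 12, 0.10 without AF MDL-800 library 25 and -0.72 without AF MDL-800 library 29. Across the 34 intervals, the lowest end was -3.75 (Myh4) and the highest was 3.06 (Myh7). With these 5 libraries a group, a several-fold decrease of Myh4 or increase of Myh7 was not excluded. The groups overlapped for 34 of 34 genes, where 0.0977% of all genes were lower and 0.128% higher without overlap.

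The difference of the MDL-800 effect between NP and AF passed for 0 of the 34 genes, where 0% of all genes passed, and 0 of the 34 against 3.73% of all genes had an unadjusted p under 0.05 (limma). The lowest value was -1.94 (Myl2, interval -5.37 to 1.50), or -1.01 for Myl2 without NP vehicle library 3, and the median was -0.25. With single libraries left out the median ran from -0.78 (without NP vehicle library 1) to 0.47 (without NP vehicle library 3). It was also positive without NP MDL-800 library 19 (0.11), AF vehicle library 8 (0.11) and AF MDL-800 libraries 27 (0.10) and 29 (0.18).

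Within AF the amount of muscle RNA varied together. AF vehicle library 12 and AF MDL-800 libraries 27 and 29 were the 3 highest AF libraries for 29 of the 34 genes, and one of libraries 8, 25 and 30 was the lowest for all 34. The highest over the lowest AF value was 8.45 for Eno3 and 113 for Myh7, the extremes of the 34. Summed nerve markers did not take that order: they were 468, 68.1 and 246 FPKM in libraries 12, 27 and 29, within a range of 68.1 to 1138, and red blood cell markers were 594, 538 and 627, the 3 lowest of the 10. The other marker lists are not compared in this way here.

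The myosin heavy chains differed in their proportions between AF libraries. As a share of the summed FPKM of Myh1, Myh2, Myh4 and Myh7, the 2B chain Myh4 made up 77.1%, 35.5%, 49.0%, 37.5% and 15.0% in AF vehicle libraries 8, 9, 10, 12 and 13. In AF MDL-800 libraries 25, 27, 28, 29 and 30 it made up 12.7%, 34.002%, 38.5%, 17.2% and 5.84%. The slow chain Myh7 made up 0.714%, 6.10%, 2.72%, 5.91% and 9.75% with vehicle and 4.12%, 14.4%, 2.76%, 11.0% and 21.9% with MDL-800. Library 8 was thus nearly all fast chains and library 30 had the highest share of Myh7, and the 2 groups overlapped for both genes. The mean share of Myh4 was 42.8% ± 22.7 (SD, n = 5) with vehicle and 21.6% ± 14.0 (SD, n = 5) with MDL-800, and that of Myh7 was 5.04% ± 3.47 and 10.8% ± 7.84; these differences were not tested. The NP sums were too small to read in this way in most libraries, at 0.670 to 17.7 FPKM outside library 3.

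**Figure D4:**
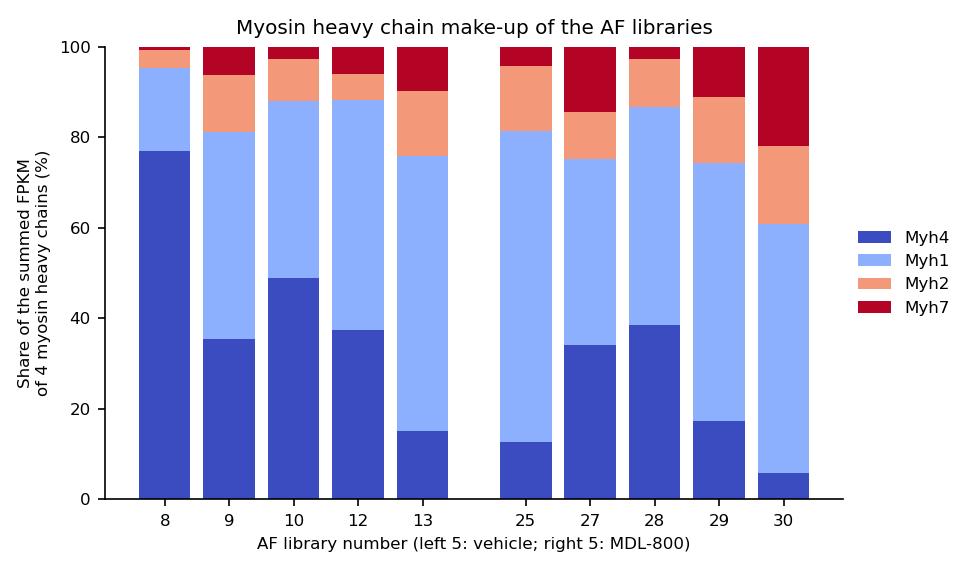
Shares of 4 myosin heavy chains in their summed FPKM (stacked bars, %) in each AF library, vehicle on the left and MDL-800 on the right. Myh4 takes 77.1% in library 8 and 5.84% in library 30, and Myh7 takes 0.714% and 21.9%.

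Pairs of slow and fast partner genes shared their highest library, while the other ranks differed from pair to pair. The slow over fast ratio of FPKM was taken for Myh7 over Myh4, Myl2 over Mylpf, Myl3 over Myl1, Tnnt1 over Tnnt3, Tnni1 over Tnni2 and Tnnc1 over Tnnc2. AF MDL-800 library 30 had the highest ratio in 6 of 6 pairs, and AF vehicle library 8 and AF MDL-800 library 28 were among the 3 lowest in 6 of 6. Myl2 over Mylpf ran from 0.0652 in library 8 to 0.629 in library 30, and Tnni1 over Tnni2 from 0.0468 in library 28 to 0.507 in library 30. The pairs share the same libraries, and Myh7 over Myh4 reuses the heavy chain values, so they are not separate evidence. Tnnc1 over Tnnc2 was above 1 at the median of the 10 AF libraries (1.59), while the other 5 pairs were below it, at 0.0492 to 0.249.

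**Figure D5:**
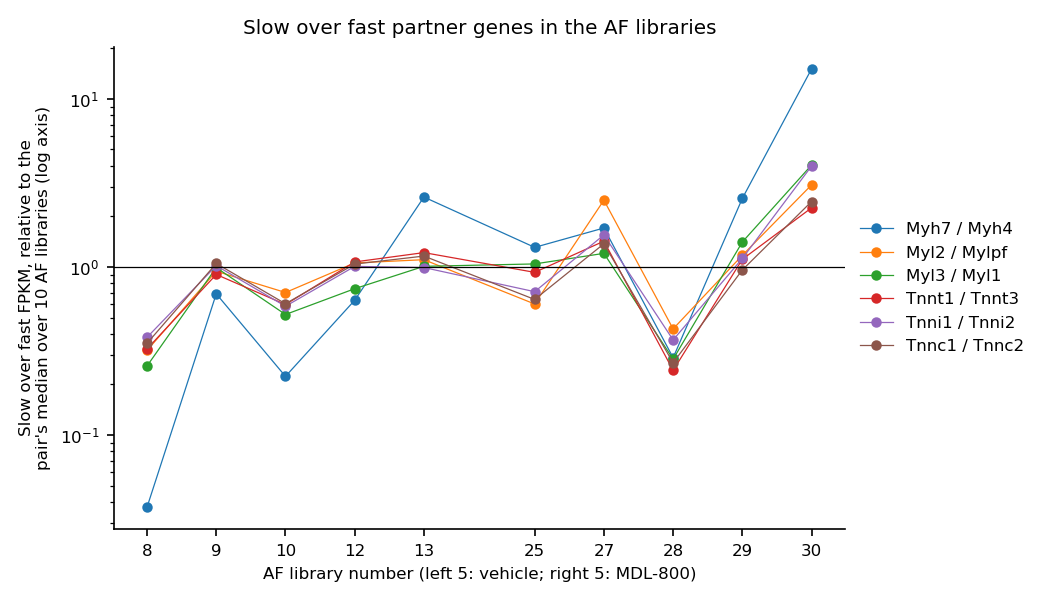
Slow over fast FPKM ratio of 6 partner pairs in each AF library, divided by the pair's median over the 10 AF libraries (log axis). Lines only join the points of a pair; the 6 pairs are low in libraries 8 and 28 and highest in library 30.

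The 2 AF MDL-800 libraries richest in these genes, 27 and 29, differed by transcript length. Over the 10 genes with the shortest exon length (800 to 1739 bases), library 27 had a median of 0.536 times the scaled FPKM of library 29, and 0 of 10 were above 1. Over the 10 longest (3611 to 116825 bases), the median was 1.21 and 6 of 10 were above 1, including Neb (1.78), Ttn (1.52) and Myh4 (2.34). Actn2 was the lowest of the 10 longest (0.623). Over 15805 tested genes the median ratio was 0.983. Spearman's rho was taken of exon length with a gene's level relative to its mean over the 10 AF libraries. Across the 34 genes it was 0.55 in library 27, -0.30 in 29, -0.54 in 9 and -0.60 in 25. Across tested genes it was 0.05, -0.03, -0.21 and -0.11. In the remaining AF libraries, rho across the 34 genes ran from -0.18 (library 12) to 0.35 (library 28). These are descriptions over genes that share a library, and RNA quality values were not used here.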

How the data were processed

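RNA was measured in 20 mouse disc libraries. Per the labels' protocols, 50 ng of RNA gave stranded libraries of ribosome-depleted total RNA, amplified in 14 PCR cycles. The submitters' processing notes name STAR 2.7.11b and mm10; the counting program and annotation are not given in the sources used here. The authors deposited 1 table of FPKM per gene and library, with 2 decimals; that the unit is FPKM comes from the deposited table's name. Depth was estimated from the steps between low FPKM values among 6641 single-exon genes (400 to 1200 bases), with 627 to 857 values used per library. Of the values used, 82.3% to 87.9% lay within 0.2 reads of a whole number, too few to recover counts.

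Each library was divided by a factor, taken as the median, across 11308 genes, of its ratios to the geometric mean (0.933 to 1.06), which gave scaled FPKM. Genes with at least 1 FPKM in at least 5 of 20 libraries were tested (16383) on log2(scaled FPKM + 1) with limma 3.58.1 (R 4.3.3), 2 groups a fit and all 4 groups for the difference of the MDL-800 effect. P-values were adjusted by Benjamini-Hochberg over all genes tested and called under 0.05; fold changes on this scale understate changes of low genes. Descriptions used Python 3.11.15. Only the fits of MDL-800 against vehicle in AF and of the difference of the MDL-800 effect were tested on simulated data.

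All 34 genes are named; values by library are given for the most abundant gene of each role, for Myh1, Myh2, Myh4 and Myh7, and for any gene called with MDL-800. Of each further muscle list, counts, at most the 2 called genes of largest change and all genes not called where there are 3 or fewer are named; higher-called genes, regulators and developmental genes were also named after their values were seen. Some genes of these lists are not reported here. The genes and lists were chosen with earlier results of these data known. Exon lengths are from GENCODE M21 (GRCm38) and promoters from RefSeq. In that annotation 18 of the 34 genes overlap a gene on the opposite strand and 4 one on the same strand; whether counting used strand is not given in the sources used here, so reads of such genes cannot be told apart. Alternatives were FPKM as deposited, other scalings, pseudocounts, filters, no trend, 1 fit of all groups, library weights and leaving out each library.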

Additional observations from a re-analysis of the deposited data

Results flagged for a closer look

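Values were checked in 156 groups of 5 libraries (each gene on the log2 scale, the share of protein-coding FPKM and the heavy chain shares), and 11 held a library far from the other 4; chance gives about 1 in 20. NP vehicle library 3 was far above the other 4 for Myh2 (7.91 scaled FPKM), Myh7 (6.62), Tpm2 (133), Actn2 (14.6), Tcap (42.9), Ryr1 (5.86) and Eno3 (79.1), and for the share of protein-coding FPKM (0.627%). AF vehicle library 12 was far above its group for Ttn (182 scaled FPKM). In NP vehicle library 1 the Myh4 share of heavy chain FPKM was low (13.8%), and in NP MDL-800 library 19 the Myh7 share was high (13.4%); those libraries had heavy chain sums of 0.870 and 0.670 FPKM.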

How the results depend on the processing

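The number of genes lower in NP was 33 to 34 of 34 in vehicle mice under the planned scalings, filters and model settings and 31 to 34 when single libraries were left out. In MDL-800 mice it was 33 to 34 under both. The genes that lost the call in some setting were Myl3, Myh7 and Tnnc1 in vehicle mice and Mybpc2, and with the replicate block Myh4 and Myl3, in MDL-800 mice. In the 3 comparisons of MDL-800, 0 of 34 passed under every setting run. Groups that did not overlap between tissues of vehicle mice numbered 4 to 33 and in MDL-800 mice 31 to 32 when single libraries were left out, and 0 to 1 for MDL-800 against vehicle in NP and 0 in AF. Of these settings, the share of all genes without overlap was taken only without NP vehicle library 3. Shares of all genes called are given only for the main fits. In NP, with single libraries left out, the MDL-800 difference of Mylpf ran from -1.37 to 0.11 and that of Acta1 from -1.20 to 0.58, positive for both without NP vehicle library 3 and for Acta1 (0.27) without NP MDL-800 library 19; the cause was not tested.

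A second number in the column headers is shared by NP and AF libraries. Deviations of same-numbered libraries correlated at -0.18 to 0.29, and 2 of 8 NP libraries correlated best with their own number, so the check did not show that the numbers pair the libraries, and the labels do not say what the number marks. With that number as a replicate block, an alternative chosen after seeing the data, 33 of 34 genes were lower in NP in vehicle mice and 31 of 34 in MDL-800 mice, the latter with the 3 numbers found in both tissues. Leaving out libraries for the overlap counts was also chosen after seeing the data. Depth limits genes at or near 0 in NP, such as Myh7 and Myl2.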
